A study of Mus musculus with 12 samples.

Results

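Rab30 and B3galnt2 are a pair of genes of the secretory pathway whose transcripts rose with the dioxin TCDD beside the textbook targets of the aryl hydrocarbon receptor (AHR). The description covers all 6 probe sets annotated to either gene alone, 2 for Rab30 and 4 for B3galnt2, out of 45037 probe sets and, with 1 probe set kept per gene, 2 of 18193 genes. The genes were selected on their measured TCDD changes in these arrays, so those changes are given as a description with standard errors and no test. RNA of primary mouse hepatocytes was hybridised to 12 Affymetrix mouse expression arrays, 1 array per mouse per the design text, with 3 arrays in each of 4 groups. The hAHR groups came from mice that carry the floxed Ahr allele Ahrtm3.1Bra on a B6.Cg background with the transgenes Alb-cre, Cre under the albumin promoter, and Ttr-AHR, human AHR under the transthyretin promoter, both active in hepatocytes. They received 10 nM TCDD or DMSO vehicle for 6 h. The C57BL6/J groups, wild type, carry the mouse receptor and received the same treatments. Cells of all 4 groups were first cultured for 48 h in a medium that itself held 2.5% DMSO and 10 nM dexamethasone, so the vehicle groups are not free of DMSO or of glucocorticoid. The labels give neither the age nor the sex of the mice. In cell preparations of this kind, fewer cells of a type and less RNA per cell cannot be told apart.

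Rab proteins are small GTPases that switch between a GTP-bound form, which recruits effectors to a membrane, and a GDP-bound form, and each marks its own set of compartments. Rab30 belongs to the Golgi. B3galnt2 encodes a glycosyltransferase of the endoplasmic reticulum that adds N-acetylgalactosamine to the O-mannosyl glycan of dystroglycan, a receptor for extracellular matrix, and loss of the human enzyme causes a muscular dystrophy with brain involvement. AHR is a transcription factor that binds ligands such as TCDD in the cytosol, enters the nucleus, pairs with ARNT and activates genes such as Cyp1a1, a cytochrome P450 that oxidises aromatic compounds, and Tiparp, an ADP-ribosyltransferase that feeds back on the receptor. Hepatocytes secrete most plasma proteins, so the Golgi and its glycosylation enzymes carry a heavy load in this cell.

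Signals are linear intensities, rescaled so that the mean of each array after trimming 2% of values at each end was 150, and array medians then lay between 16.5 and 23.5. As deposited this mean was 150 on 9 arrays and 500 on the 3 C57BL6/J TCDD arrays, so in C57BL6/J the treatment coincided with a deposited scaling that differed by 1.74 on the log2 scale. After rescaling, the medians of the C57BL6/J TCDD arrays were 20.28, 21.54 and 21.87, all above the 18.1, 18.1 and 19.0 of the C57BL6/J DMSO arrays. In hAHR the medians of the 2 treatments overlapped. Over all probe sets, 58.4% had a TCDD change above 0 in C57BL6/J and 47.6% in hAHR. The 5 hepatocyte markers summed to at least 36900 on every array, with Alb, the main secreted protein of hepatocytes, between 10480 and 16070 and Ttr, which carries thyroid hormone, between 10870 and 16120. Sums of the 5 macrophage markers ran from 1791 to 4125, mostly from Cd68 with a mean of 2650, and overlapped between the TCDD and the DMSO group of each genotype. Sums of the 5 stellate cell markers were 56.7 to 95.9 in hAHR TCDD, 71.2 to 135 in hAHR DMSO, 69.4 to 84.4 in C57BL6/J TCDD and 74.5 to 116 in C57BL6/J DMSO arrays, with Lrat, a defining one, averaging 6.27. Among them Acta2, smooth muscle actin, averaged 17.1 in hAHR TCDD and 53.1 in hAHR DMSO arrays (log2 -1.15, unadjusted p = 0.00536, limma adjusted p = 1), and 15.4 in C57BL6/J TCDD and 34.1 in C57BL6/J DMSO arrays (log2 -0.65, unadjusted p = 0.0803). The other stellate cell markers did not follow it together. In hAHR Des stood at log2 0.25, Col1a2 at 0.21, Lrat at 0.04 and Col1a1 at -0.23. In C57BL6/J Des stood at 0.18, Col1a2 and Col1a1 at -0.02 each and Lrat at -0.42. The 4 endothelial markers summed to 95.8 to 204. The 3 leukocyte markers summed to at most 39.7, and Cd79a, of B cells, averaged 15.7 in C57BL6/J TCDD and 2.57 in C57BL6/J DMSO arrays (unadjusted p = 0.0163, limma adjusted p = 0.966). As log2 changes in C57BL6/J, Cd79a stood at 0.68, Cd3e at 0.03 and Ptprc at -0.21. The part of these markers in the TCDD changes was not tested. The 4 cholangiocyte markers, mostly Krt19 with a mean of 633, summed to 602 to 693 on the C57BL6/J TCDD arrays, below the 764 to 930 of the C57BL6/J DMSO arrays. In hAHR the sums overlapped, at 533 to 1144 with TCDD and 533 to 1371 with DMSO. As log2 changes in C57BL6/J, Krt19 stood at -0.45, Krt7 at -0.41, Epcam at -0.05 and Sox9 at 0.04. The part of the cholangiocyte markers in the C57BL6/J changes was not tested. Xist, the transcript of the silenced X chromosome, stood at 2952 and 3085 on the C57BL6/J replicate 2 arrays and at no more than 29.3 on the others, and Eif2s3y, a Y-linked gene, stood at 0.42 and 4.7 there against at least 453 elsewhere, so those arrays carried the pattern of female cells. With 3 arrays a group, precision is limited by their number, since an array holds no counts.

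The brightest Rab30 probe set, 1426452_a_at, had signals of 1307, 1594 and 1722 in hAHR TCDD arrays, against 413, 501 and 548 in hAHR DMSO arrays. The lowest TCDD array was 2.39 times the highest DMSO array, so the groups were far apart. Their means were 1541 ± 213 and 487 ± 68.7 (SD, n = 3 each). On the scale of log2(signal + 16), used for all changes here, the difference was 1.63 (standard error 0.23), or 3.09 times the DMSO level.

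In C57BL6/J hepatocytes the same Rab30 probe set read 990, 1334 and 707 with TCDD, against 414, 642 and 372 with DMSO. All TCDD arrays again lay above all DMSO arrays, but the lowest TCDD array was only 1.10 times the highest DMSO array. The means were 1010 ± 314 and 476 ± 145 (SD, n = 3 each), a log2 change of 1.05 (standard error 0.23), or 2.07 times the DMSO level. Replicate 2 was the highest array of both C57BL6/J groups, and it is the one with female Xist levels. Without both replicate 2 arrays the Rab30 change in C57BL6/J was 1.06.

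By mean signal, Rab30 was ordered hAHR TCDD, C57BL6/J TCDD, hAHR DMSO and C57BL6/J DMSO. The hAHR TCDD range of 1307 to 1722 overlapped the C57BL6/J TCDD range of 707 to 1334, and the DMSO groups overlapped as well, so neither pair of neighbours in that order was separate. C57BL6/J TCDD and hAHR DMSO arrays did not overlap. Between same-numbered hAHR arrays the Rab30 differences were 1.63, 1.64 and 1.62. These pairs therefore differed from each other by far less than the arrays of a group did, where log2 values ran over 10.37 to 10.764 with TCDD and 8.743 to 9.139 with DMSO. The other probe sets were less even between hAHR pairs. Their differences ran from 1.36 to 1.52 for 1434135_at, 1.03 to 1.93 for 1454842_a_at and 0.4 to 0.79 for 1440325_at. For 1442750_at they ran from 0.14 to 0.83, and for 1460105_at from -0.2 to 0.58.

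**Figure D1:**
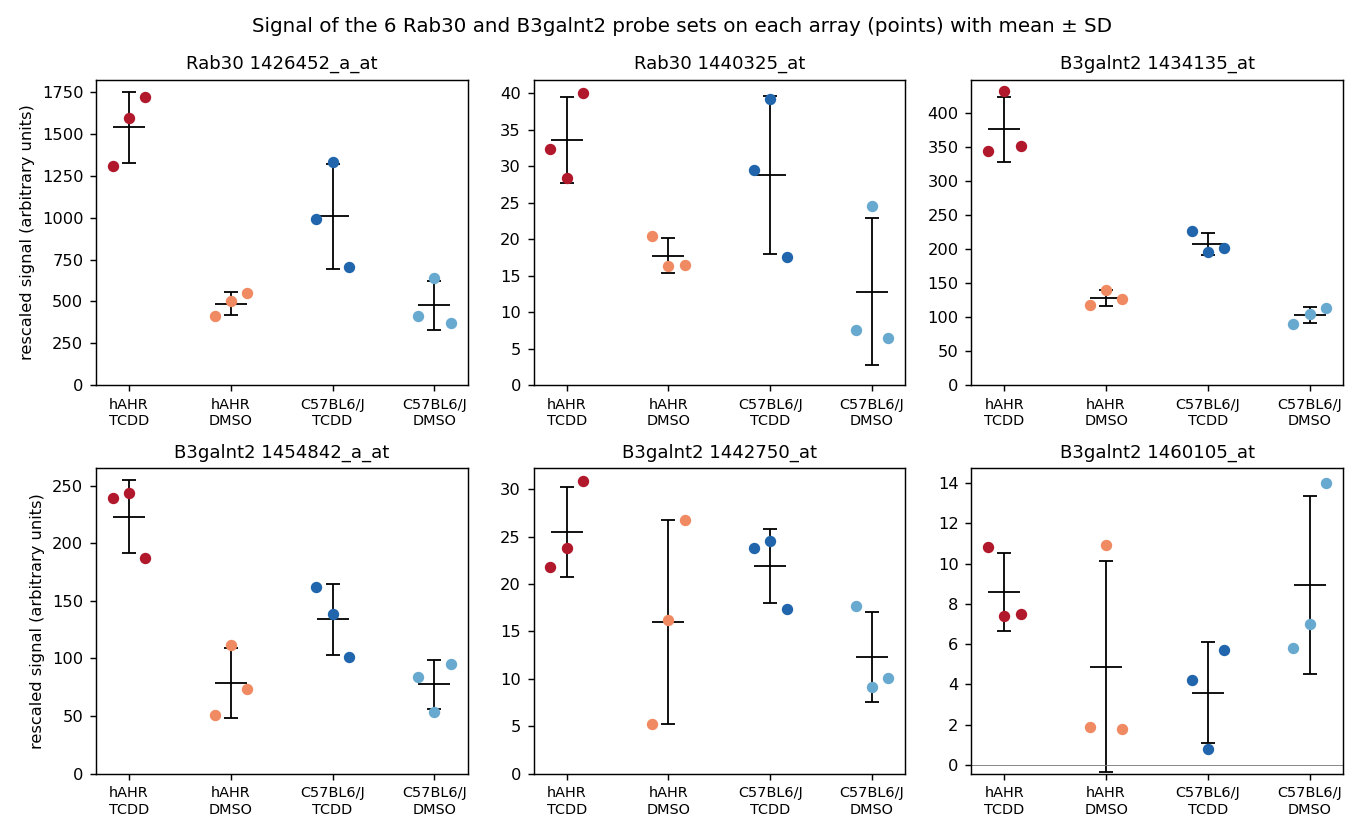
Rescaled signal (arbitrary units, linear axis with its own range in each panel) of the 6 probe sets on each of the 12 arrays, with the mean and SD of each group as bar and whiskers (n = 3). In the panel of Rab30 1426452_a_at the hAHR TCDD arrays sit between 1307 and 1722, and in that of B3galnt2 1434135_at the 4 groups do not overlap, while the panel of B3galnt2 1460105_at stays at or below 14.

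The other Rab30 probe set, 1440325_at, was dim. It gave 32.3, 28.4 and 40 in hAHR TCDD arrays, against 20.5, 16.3 and 16.4 in hAHR DMSO arrays, with no overlap. In C57BL6/J hepatocytes it gave 29.5, 39.2 and 17.6 with TCDD, against 7.6, 24.5 and 6.4 with DMSO, and there the groups overlapped. Its log2 change was 0.55 in hAHR and 0.66 in C57BL6/J (standard error 0.27 each), and all 3 same-numbered hAHR pairs were higher with TCDD. The offset of 16 weighs on signals of this size: with no offset the changes were 0.91 and 1.37. As plain ratios of mean signals, TCDD over DMSO, the bright and the dim Rab30 probe set stood at 3.16 and 1.89 in hAHR but at 2.12 and 2.24 in C57BL6/J.

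B3galnt2 was measured most strongly by 1434135_at. Its signals were 345, 432 and 351 in hAHR TCDD arrays, against 117, 140 and 127 in hAHR DMSO arrays. The lowest TCDD array was 2.46 times the highest DMSO array. Means were 376 ± 48.4 and 128 ± 12.0 (SD, n = 3 each), and the log2 change was 1.44 (standard error 0.15), or 2.72-fold.

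In C57BL6/J hepatocytes 1434135_at read 226, 196 and 202 with TCDD, against 89.5, 105 and 114 with DMSO, again without overlap. The means of 208 ± 16 and 103 ± 12.4 (SD, n = 3 each) differed by 0.91 on the log2 scale (standard error 0.15), or 1.88 times, and by 0.97 without both replicate 2 arrays. The order of the groups was hAHR TCDD, C57BL6/J TCDD, hAHR DMSO and C57BL6/J DMSO, as for Rab30. Here no neighbours in the order overlapped, although the lowest hAHR DMSO array, at 117, was close to the highest C57BL6/J DMSO array, at 114. B3galnt2 also spread little within groups: its within-group SD of 0.139 on the log2 scale was at the 9.2 percentile of all probe sets, against 0.335 and the 72.0 percentile for bright Rab30.

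The second B3galnt2 probe set, 1454842_a_at, followed the first. It read 239, 244 and 187 in hAHR TCDD arrays, against 51.2, 112 and 73.1 in hAHR DMSO arrays, and 162, 139 and 101 in C57BL6/J TCDD arrays, against 83.8, 53.8 and 95.3 in C57BL6/J DMSO arrays. TCDD and DMSO arrays did not overlap in either genotype, though in C57BL6/J the lowest TCDD array was only 1.06 times the highest DMSO array. The log2 changes were 1.38 and 0.69 (standard error 0.25 each).

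The 2 dimmest B3galnt2 probe sets gave no such picture. For 1442750_at the signals were 21.8 to 30.9 in hAHR TCDD arrays, against 5.2 to 26.7 in hAHR DMSO arrays, and 17.4 to 24.5 in C57BL6/J TCDD arrays, against 9.1 to 17.7 in C57BL6/J DMSO arrays. Both comparisons overlapped, at 0.43 (standard error 0.26) in each genotype. All 3 same-numbered hAHR pairs were higher with TCDD, a description given without the share over all probe sets. The hAHR value was 0.16 without DMSO replicate 1 and 0.66 without DMSO replicate 3. For 1460105_at the signals were 7.4 to 10.8 in hAHR TCDD arrays, against 1.8 to 10.9 in hAHR DMSO arrays, and 0.81 to 5.73 in C57BL6/J TCDD arrays, against 5.8 to 14 in C57BL6/J DMSO arrays. Of its 3 same-numbered hAHR pairs, 2 were higher with TCDD. Its values were 0.26 in hAHR, with overlap, and -0.34 in C57BL6/J (standard error 0.19 each), where all TCDD arrays lay below all DMSO arrays. Both lay below or near the middle of the array, at the 50.4 and 23.6 percentiles of mean signal, against 80.9 and 75.7 for the brighter pair. A signal of this kind is set by the probes as well as by the transcript, so signals of different probe sets are not amounts of RNA that can be ranked.

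**Figure D2:**
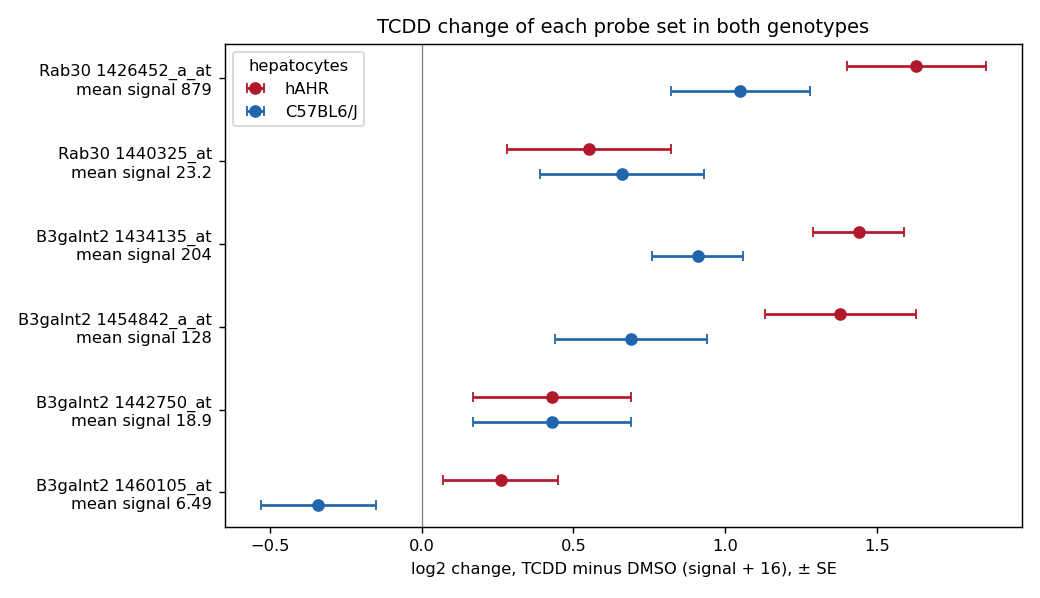
Log2 change (TCDD minus DMSO, on log2(signal + 16)) with its standard error for each probe set, in hAHR (red) and C57BL6/J (blue) hepatocytes; probe sets are listed with their mean signal over 12 arrays. The 3 probe sets with mean signals of 128 or more lie between 1.38 and 1.63 in hAHR and between 0.69 and 1.05 in C57BL6/J, and the 3 with signals of 23.2 or less lie between -0.34 and 0.66.

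In hAHR hepatocytes, 4 of the 6 probe sets had every TCDD array above every DMSO array, against 3.69% of all 45037 probe sets. In C57BL6/J the number was 3 of 6, against 7.17%, and 1 of 6 lay entirely below, against 2.61%. These contrasts chose the members, so the counts are descriptive. On this scale the brighter probe sets had the larger changes, but the offset of 16 lowers the change of a dim probe set more than that of a bright one. With no offset the hAHR changes were 1.66 and 0.91 for bright and dim Rab30, and 1.55, 1.57, 0.94 and 1.34 for the B3galnt2 probe sets from the brightest to the dimmest, the last with a standard error of 0.93. The C57BL6/J changes with no offset were 1.08 and 1.37 for bright and dim Rab30, where the dim one was the larger. For B3galnt2 they were 1.02, 0.8, 0.88 and -1.62 in the same order. Averaged over all probe sets of a gene, the hAHR change was 1.09 for Rab30 and 0.88 for B3galnt2, and the C57BL6/J change 0.86 and 0.42. The sources used here do not place these probe sets on the transcripts.

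Ranked over all genes, each by its brightest probe set, Rab30 and B3galnt2 held places 4 and 5 of 18193 from the top in hAHR and places 17 and 31 in C57BL6/J. Among the 8728 genes with a mean signal of at least 50 the places were 3 and 4 in hAHR, and 11 and 17 in C57BL6/J. The changes in hAHR exceeded those in C57BL6/J by 0.58 (standard error 0.33) for bright Rab30 and by 0.53 (standard error 0.21) for bright B3galnt2. For the dim probe set of Rab30 the same difference was -0.11 (standard error 0.38).

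The genotypes could be compared with a contrast that did not choose the members. It is the difference between hAHR and C57BL6/J averaged over both treatments. In a balanced layout its error is uncorrelated with the errors of the TCDD changes. Its value is not separate from them, since a TCDD rise that is larger in hAHR also raises the average. The test also uses the same within-group spread as those changes. B3galnt2 1434135_at was higher in hAHR by 0.54 on the log2 scale (95% confidence interval 0.31 to 0.77). Over all 45037 probe sets this did not pass (limma adjusted p = 0.287, unadjusted p = 0.000166), and among genes it was at place 14 by p. Rab30 1426452_a_at was higher by 0.35 (95% confidence interval 0.00 to 0.70, limma adjusted p = 0.945), and by 0.58 without both C57BL6/J replicate 2 arrays (limma adjusted p = 0.43). All 6 probe sets lay above 0, as 49.9% of all probe sets did, and limma called 0 of them. An unadjusted p under 0.05 was found for 1 of the 6, and for 2380 of all 45037. As background, limma called 10 probe sets (0.0222%) and, by gene, 6 genes (0.033%).

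Split by treatment and given without a test, since these arrays enter the TCDD contrasts, the genotype difference of bright B3galnt2 was 0.80 under TCDD and 0.28 under DMSO (standard error 0.15 each). For bright Rab30 it was 0.64 under TCDD and 0.06 under DMSO (standard error 0.23 each). The 3′ to 5′ signal ratio of Actb, a measure of RNA integrity, overlapped between genotypes, at 1.47 to 1.53 in hAHR TCDD and 1.39 to 1.52 in C57BL6/J TCDD arrays, and at 1.39 to 1.56 in hAHR DMSO and 1.33 to 1.43 in C57BL6/J DMSO arrays. The Gapdh ratio overlapped under TCDD, with means of 0.819 in hAHR and 0.823 in C57BL6/J, but not under DMSO, at 0.830 to 0.840 in hAHR and 0.798 to 0.816 in C57BL6/J. Of the 5 macrophage markers, 4 stood higher in hAHR averaged over treatments, Marco by 1.5, Csf1r by 1.16, Clec4f by 0.88 and Adgre1 by 0.87 on the log2 scale, with unadjusted p between 0.0043 and 0.0317 and limma adjusted p of 0.641 or more, and Cd68 by 0.04. Marco varied widely between hAHR arrays, at 50.1 ± 63.3 with TCDD and 49.5 ± 49.8 with DMSO. In C57BL6/J it stood at 1.49 ± 0.688 with TCDD and 1.63 ± 1.02 with DMSO (SD, n = 3 each). The part of the macrophage markers in the genotype differences of Rab30 and B3galnt2 was not tested. Ahr, the receptor gene that is floxed in hAHR mice, read 211 ± 16.4 and 217 ± 22.2 in hAHR TCDD and DMSO arrays, and 303 ± 121 and 374 ± 210 in C57BL6/J TCDD and DMSO arrays (SD, n = 3 each). The C57BL6/J means rest on the replicate 2 arrays, at 442 with TCDD and 617 with DMSO, while all hAHR arrays lay between 193 and 236 and the other C57BL6/J arrays between 223 and 261. Arnt, the partner of AHR, averaged 226 and 223 in hAHR TCDD and DMSO arrays, and 255 and 271 in C57BL6/J TCDD and DMSO arrays. The sources used here do not say whether the Ahr probe set lies in the floxed part of Ahr, so its signal does not check the deletion. Human AHR was not analysed here.

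Rab30 and B3galnt2 were close to each other over the 12 arrays. Likeness was measured as the root mean square difference between log2 values, each gene set to its own mean, over the 8727 other genes with a mean signal of at least 50. B3galnt2 was the gene nearest to Rab30, at 0.312, and Tiparp the next, at 0.340, where Rab30 itself varied by 0.759 around its mean. Wdr91, an endosomal WD-repeat protein, Rnf39, a RING finger protein, and Zfp36l1, an RNA-binding protein that promotes mRNA decay, followed at 0.383, 0.393 and 0.424. Nearest to B3galnt2, which varied by 0.671, were Rnf39 at 0.280, Tiparp at 0.288, Rab30 at 0.312, and Reln, a secreted matrix protein, and Wdr91 at 0.409 each. The measure uses the TCDD contrasts, so TCDD-responsive genes are near by construction.

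Rnf39, the gene nearest to B3galnt2, read 130, 111 and 105 in hAHR TCDD arrays, against 33.4, 47.6 and 47.1 in hAHR DMSO arrays. In C57BL6/J it read 62.1, 56.4 and 44.6 with TCDD, against 43.9, 36.8 and 29.8 with DMSO. Its TCDD arrays lay above its DMSO arrays in both genotypes, in C57BL6/J only just, at 44.6 against 43.9. So did 3.69% of all probe sets in hAHR and 7.17% in C57BL6/J. Its changes were 1.16 in hAHR (limma adjusted p = 0.188) and 0.41 in C57BL6/J (limma adjusted p = 0.966). Wdr91 stood at 0.96 and 0.45 and Zfp36l1 at 1.35 and 0.34 in hAHR and C57BL6/J, with limma adjusted p of 0.868 or more. Likeness to genes chosen on TCDD picked these genes, so their p-values are descriptive. Cyp1a1, the largest responder, was at the far end of the same scale, 2.29 from Rab30 and 2.387 from B3galnt2, with changes of 6.09 in hAHR and 3.00 in C57BL6/J. The size of the C57BL6/J value rests largely on replicate 2, since the Cyp1a1 signals were 125, 2518 and 64.9 with TCDD, against 25.3, 24.0 and 18.5 with DMSO. Every TCDD array lay above every DMSO array there, as for 7.17% of all probe sets.

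**Figure D3:**
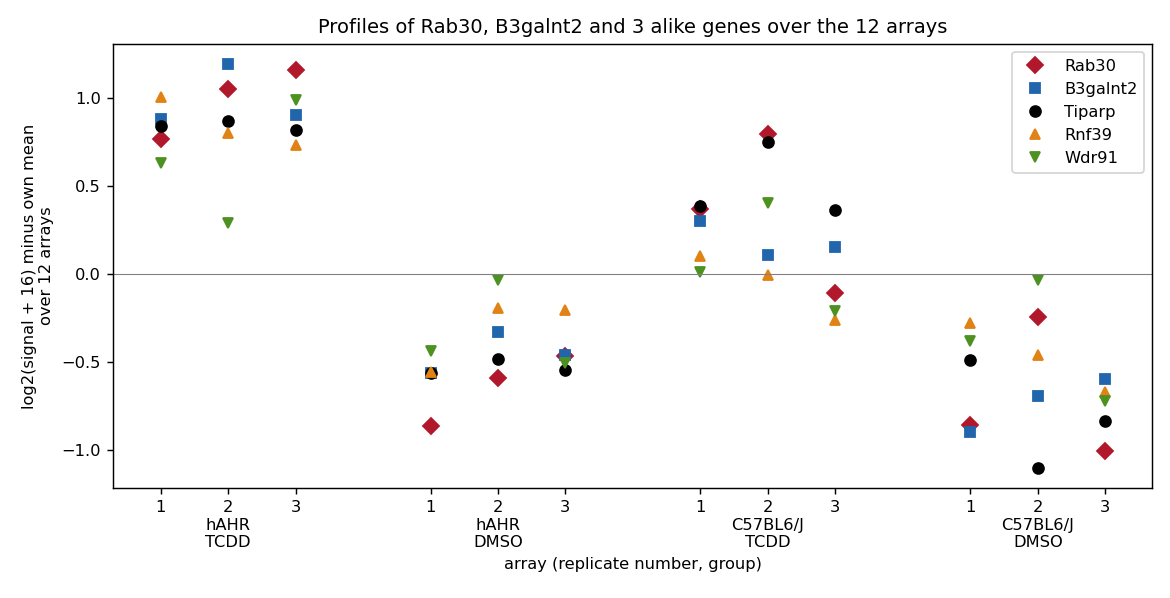
Log2(signal + 16) minus each gene's own mean over 12 arrays (vertical axis) on each array (horizontal axis, by group and replicate number) for Rab30, B3galnt2, Tiparp, Rnf39 and Wdr91. All 5 genes lie above their mean on every hAHR TCDD array and below it on every DMSO array, while on the C57BL6/J TCDD arrays Tiparp and B3galnt2 lie above it and the other 3 on both sides of it.

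No other gene listed for the secretory pathway reached changes of this size. Over 6 lists, 162 entries other than Rab30 and B3galnt2 were measured, and their changes ran from -0.47 to 0.51 in hAHR and from -0.43 to 0.59 in C57BL6/J. Limma called 0 of them in either genotype, with 1 at an unadjusted p under 0.05 in each. Among all genes it called 4 in hAHR (0.022%) and 1 in C57BL6/J (0.0055%), with Cyp1a1 and Tiparp among the hAHR calls and Tiparp the C57BL6/J call. Calls of Rab30 and B3galnt2 in these contrasts carry no weight, since the contrasts chose them. For the same reason smaller changes in the listed genes follow largely from that choice. The comparison of sizes, here and for each list, is descriptive.

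The Rab family was measured in full for the other 53 members listed. In hAHR 18 lay above and 35 below DMSO, with a median of -0.08 against -0.01 for all genes. The highest was Rab39 at 0.26, on a mean signal of 7.79. Rab6a, which directs retrograde transport at the Golgi, stood at -0.36 and Rab24, linked to autophagy, at -0.31. In C57BL6/J 30 lay above and 23 below with a median of 0.01, Rab31, of the trans-Golgi and endosomes, at -0.42 and Rab6b at 0.59 with a standard error of 0.43. All 53 stood below the 1.05 of Rab30 there.

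Golgi matrix proteins and tethers (29 measured) had medians of -0.05 in hAHR and 0.01 in C57BL6/J, with 6 and 16 members above DMSO. Golga2, the cis-Golgi matrix protein GM130, was at -0.45 in hAHR (unadjusted p = 0.025, limma adjusted p = 1), and Gorasp2, a Golgi stacking protein, at -0.28. Gbf1, which activates Arf GTPases for coat assembly, stood at 0.28 in C57BL6/J, and Cog1, of a tethering complex, at -0.32. The 26 coat proteins and cargo factors of transport between endoplasmic reticulum and Golgi had medians of -0.02 and -0.06. Their extremes in C57BL6/J were Cope, a COPI subunit, at -0.39 and Sec24b, a cargo adaptor of COPII, at 0.31, and Sec24b also had the highest value in hAHR, 0.27. Sec23a, of the COPII inner coat, stood at -0.30 in C57BL6/J and Lman1, a cargo receptor for glycoproteins, at -0.22.

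The dystroglycan pathway, in which B3galnt2 acts, had 15 of 19 listed members measured besides it, with 7 above and 8 below DMSO in hAHR (median -0.03) and 10 above and 5 below in C57BL6/J (median 0.04). Dag1, dystroglycan itself, stood at -0.18 in hAHR and 0.23 in C57BL6/J. Pomk, the O-mannose kinase that works on the glycan after B3galnt2, was at -0.03 and -0.38. Dpm3, a subunit of the enzyme that makes the mannose donor, had the highest value in hAHR at 0.51, on a mean signal of 18.5. Gmppb, which makes GDP-mannose, was at 0.03 and -0.43.

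Relatives of B3galnt2 in glycosyltransferase family 31 (24 measured) had medians of -0.09 in hAHR and 0.07 in C57BL6/J. B3galnt1, its namesake that makes globoside in glycolipids, had a mean signal of 4.79 and stood at 0.32 in hAHR and -0.20 in C57BL6/J. B3gnt5, which builds lacto-series glycolipids, stood at -0.38 and 0.20. C1galt1, which extends mucin-type O-glycans, and its chaperone C1galt1c1 stood at -0.40 and -0.32 in C57BL6/J, the second at an unadjusted p = 0.0446 (limma adjusted p = 0.966). The 15 N-acetylgalactosamine transferases that start mucin-type O-glycans had medians of -0.09 and -0.11, with Galnt2 at 0.28 in hAHR and 0.29 in C57BL6/J. Galnt13 stood at 0.38 and -0.19, Galnt6 at -0.47 and -0.33, and Galnt3 at -0.27 and 0.08, all on mean signals of 15.9 or less. By comparison the 14 measured of 18 listed AHR targets had medians of 0.49 and 0.43, with 2 called in hAHR and 1 in C57BL6/J. Cyp1a2, a cytochrome P450 of the same family as Cyp1a1, stood at 0.11 and 0.87, and Pmm1, a phosphomannomutase, at 0.42 and 0.59, neither called for TCDD. Cyp1a2 already averaged 2975 in hAHR DMSO against 591 in C57BL6/J DMSO arrays, and 3207 and 1150 with TCDD. Its genotype difference averaged over treatments was 1.95 (limma adjusted p = 0.00122). The list of AHR targets holds genes known beforehand to respond to TCDD and was drawn up with earlier results of these arrays known.

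**Figure D4:**
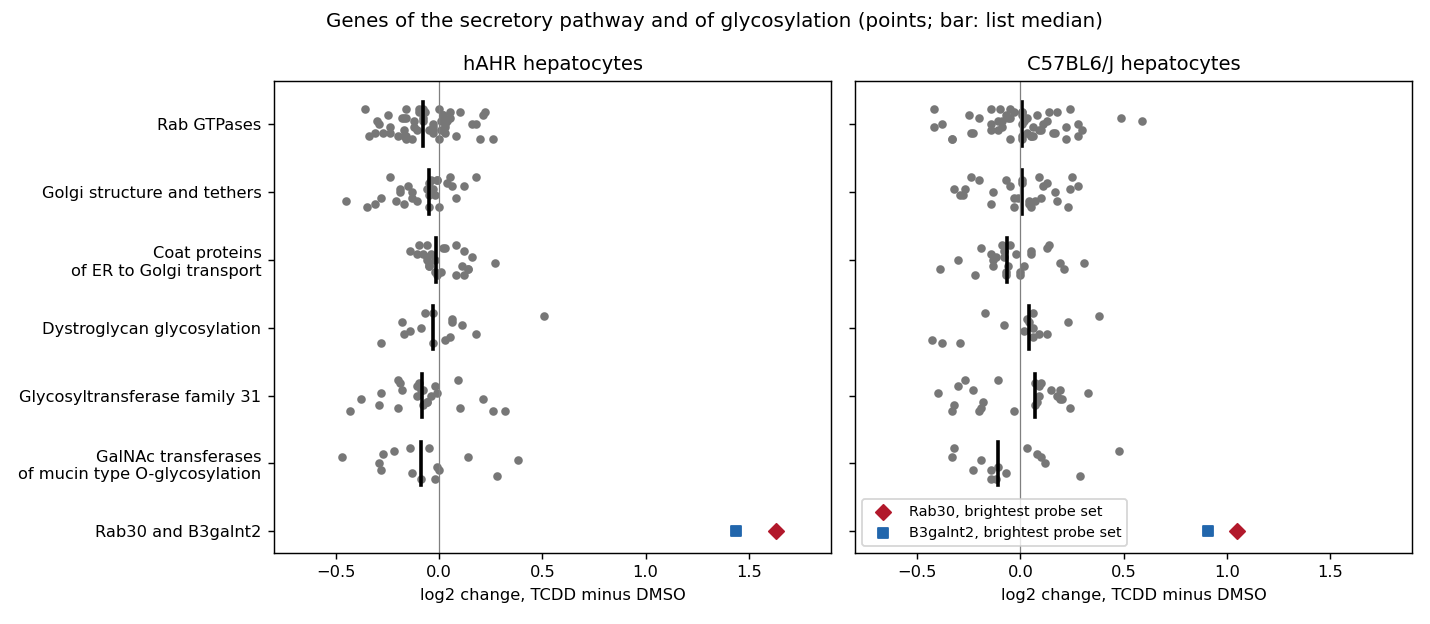
Log2 change (TCDD minus DMSO) of each measured gene of 6 lists (grey points, with the list median as a bar) in hAHR and C57BL6/J hepatocytes, with the brightest probe sets of Rab30 and B3galnt2 in the lowest row. No list member lies above 0.51 in hAHR or 0.59 in C57BL6/J, against 1.63 and 1.44 in hAHR and 1.05 and 0.91 in C57BL6/J for Rab30 and B3galnt2, which were chosen on these changes.

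Genes beside Rab30 and B3galnt2 on the chromosome had smaller changes too. Here as well the members were chosen on these changes, so the comparison is descriptive. In the order of the GRCm38.p6 annotation, the 3 nearest measured genes on each side of either member were followed, 12 in all. Their changes ran from -0.31 to 0.27 in hAHR and from -0.51 to 0.33 in C57BL6/J, and limma called 0 of them, with 0 and 1 at an unadjusted p under 0.05. The gene 4632427E13Rik, next to Rab30 on one side, stood at 0.08 in hAHR and -0.11 in C57BL6/J. Ddias, a gene linked to cell survival after DNA damage, and Prcp, a prolylcarboxypeptidase, lie on the other side of Rab30. Ddias stood at 0.27 and 0.25, and Prcp at 0.02 and -0.09. The others around Rab30 were Pcf11, Ankrd42 and Fam181b, and around B3galnt2 Gng4, Lyst, Nid1, Ggps1 and Arid4b. Tbce, a tubulin folding cofactor whose annotated span overlaps that of B3galnt2, stood at -0.10 in hAHR and -0.51 in C57BL6/J (unadjusted p = 0.0014, limma adjusted p = 0.966), the direction opposite to B3galnt2.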

How the data were processed

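Per the design text and the submitters' processing notes, the authors preprocessed the scans with GeneChip Operating Software and normalised with PLIER in Affymetrix Expression Console 1.1. The deposited values are linear intensities, never negative, whose round trimmed means (150 or 500) are what global scaling gives. Every array was rescaled to a trimmed mean of 150. After removal of 64 control probe sets, log2(intensity + 16) was fitted with limma 3.58.1 (R 4.3.3), with a mean per group over all 12 arrays, eBayes and an intensity trend, on 45037 probe sets for the members and on 18193 genes (the probe set with the highest mean among the 34945 with 1 symbol) for lists and neighbours. Tests were two-sided, with Benjamini-Hochberg adjustment and a threshold of 0.05. The fit was also run on simulated data with independent noise on each array. That simulation held no link between arrays and no scaling difference, so it does not check how the fit handles these. Probe names come from a platform annotation, and 9160 probe sets without a symbol were not analysed here by gene.

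Named were the 6 probe sets, the 5 nearest genes by likeness, up to 4 members of each list by smallest unadjusted p, the neighbours, the called genes, textbook AHR targets and check genes. Rab6b was added after its value was seen, as the list's highest. Members and lists were chosen with earlier results of these data known. Same-numbered arrays of hAHR were compared as pairs for description only, since their deviations from group means correlated across genes with r of 0.239, 0.265 and 0.191. The main fit, with its standard errors and p-values, used no pairing. In C57BL6/J the values were 0.25, 0.508 and 0.049, and TCDD replicate 3 was closer to DMSO replicate 1 (r = 0.283). The numbers were therefore not taken as pairs there, although the 0.508 belongs to the replicate 2 arrays with the female pattern. What links same-numbered arrays was not tested. P-values measure the spread between arrays, each of 1 mouse per the design text. Alternatives covered offset, normalization, dim features, the prior, array weights, a replicate block, the arrays fitted and the probe sets of a gene.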

Additional observations from a re-analysis of the deposited data

How the results depend on the processing

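The TCDD changes of the 6 probe sets gave 262 values over all alternatives, and 0 reversed. Of these 252 moved by less than the spread between replicates, and the 10 that moved more did so with another offset. With an offset of 50, bright B3galnt2 stood at 1.26 in hAHR and 0.75 in C57BL6/J. Leaving out 1 array at a time gave 1.52 to 1.74 in hAHR and 0.83 to 1.28 in C57BL6/J for bright Rab30, and 1.34 to 1.5 and 0.83 to 0.98 for bright B3galnt2. With arrays shifted to the same median, the C57BL6/J changes were 0.94 and 0.80 for bright Rab30 and bright B3galnt2. The other probe sets were lower too, at 0.55 for 1440325_at, 0.57 for 1454842_a_at, 0.31 for 1442750_at and -0.46 for 1460105_at. Their main values were 0.66, 0.69, 0.43 and -0.34. The genotype difference of bright B3galnt2 ran from 0.47 to 0.58 with limma adjusted p from 0.188 to 0.72, and that of bright Rab30 from 0.24 to 0.58 with limma adjusted p from 0.43 to 1. That of 1460105_at, 0.03, reversed without both C57BL6/J replicate 2 arrays (-0.05) and lay between -0.07 and 0.10 with 1 array left out. The cause was not tested.

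The number of genes called for TCDD in hAHR, 4, was 2 with quantile normalization, 2 without the intensity trend and 1 with a gene's probe sets averaged, and 0 to 6 with 1 array left out. It was 2 or fewer without any single hAHR array, without C57BL6/J DMSO replicate 1 or 3, and without C57BL6/J TCDD replicate 1. In C57BL6/J the count of 1 was 0 with a shared median, without the trend, from its 6 arrays alone and without both replicate 2 arrays, 2 with array weights or with every probe set tested, and 0 to 1 with 1 array left out, where it stayed 1 only without C57BL6/J DMSO replicate 1 or TCDD replicate 3. The genotype count of 6 was 11 with array weights, 10 with every probe set tested, and 5 to 7 with 1 array left out. With the replicate block within genotype the counts were 5, 1 and 5, and the standard error of the bright Rab30 change was 0.10. Signals of 23.2 or less limit what the 3 dimmest probe sets can show.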

Other observations

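Cyp1a1 read 125, 2518 and 64.9 on C57BL6/J TCDD replicates 1, 2 and 3, Rab30 1426452_a_at 990, 1334 and 707, and B3galnt2 1434135_at 226, 196 and 202. Replicate 2 was the highest for Cyp1a1 and Rab30, while the B3galnt2 arrays differed little, and B3galnt2 1454842_a_at read 162, 139 and 101. On hAHR TCDD arrays Cyp1a1 read 6624, 4004 and 6939, where replicate 2 was its lowest and the highest for B3galnt2. Zfp36l1, among the genes nearest to Rab30, read 777, 1925 and 816 on the C57BL6/J TCDD arrays and 1052 on C57BL6/J DMSO replicate 2, its highest array of that group.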
